A study of Saccharomyces cerevisiae with 8 samples.

Results

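The difference in transcript signal between TFIIB mutant and control yeast under hydrogen peroxide was read from 4 of the 8 arrays of the series, 2 of TFIIB mutant cells and 2 of control cells. These are the arrays whose titles state that 4 mM H2O2 was present, and the remaining 4 are of the same strains without it. Both strains are budding yeast (Saccharomyces cerevisiae), labelled CENPK.2-1C, grown in YPD, a rich glucose medium, and taken in exponential phase at an OD600 of 1.0. The labels name the mutant only as M1 and as a TFIIB mutant, and give neither the amino acid change nor how the gene was introduced. The 2 samples of a group are called biological replicates.

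TFIIB, the product of SUA7 in yeast, is a general transcription factor. It joins the TATA-binding protein on a promoter, brings in RNA polymerase II and helps to set where transcription starts, so nearly all messenger RNA synthesis passes through it. Hydrogen peroxide oxidises proteins, lipids and DNA. Yeast meets it with catalases, peroxiredoxins, thioredoxins and the pentose phosphate pathway, much of it under the transcription factors Yap1 and Skn7, while growth programmes such as ribosome synthesis are usually adjusted as well.

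The mutant arrays with H2O2 were dark apart from a small set of transcripts. The median probe read 3547 and 4801 scanner units on the control arrays but 6.04 and 9.75 units on the mutant arrays. The flag for a spot well above background was set for 97.2% and 96.4% of probes on the control arrays, and for 21.8% and 41.1% on the mutant arrays. The E1A spike-in probes, which bind an RNA added to every sample during labelling, did not share this gap: their geometric mean was 525 and 740 units against 672 and 695 units. Gene signals were therefore set relative to the spike-in, and values below are processed signals on that scale unless they are called scanner units. A lower signal on it can hold fewer cells, less RNA per cell or less sample RNA carried through labelling, and these arrays cannot tell them apart. All arrays lie on 1 slide, where H2O2 coincides with the row and the strain with the column, so position and group cannot be told apart either.

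The gene of the changed factor was itself among the dark ones. SUA7 (YPR086W, chromosome XVI, 710101 to 711138, plus strand, R64-1-1 positions from the authors' deposited table) read 17138 and 24463 units on the control arrays and 6.197 and 9.12 units on the mutant arrays. Both mutant values lay far below both control values, and neither was well above background, so the difference is a bound of at least 2343-fold lower (fitted log2 difference -11.41 ± 0.35, limma adjusted p = 1.41e-07). SUA7 entered the test through the control arrays alone, and 99.5% of all tested genes were called lower, so this p-value cannot support the difference. With the 75th percentile, the median or quantile normalization in place of the spike-in, the log2 difference was -1.45, -2.21 or -1.55, lower and called on each. On the mutant arrays the median probe (6.04 and 9.75 scanner units) and the 75th percentile (9.95 and 14.5) lay near background themselves. For SUA7 these scales therefore set background against background and cannot support the call. The array probe reports the amount of SUA7 RNA and says nothing on which allele it came from.

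The plot of control against mutant signal shows how far this went. Of 6225 genes on the array, 6007 were tested, namely those detected above background in both replicates of either strain. Of these, 5984 (99.6%) passed an adjusted p under 0.05 in limma. The calls were 5979 genes lower in the mutant (99.5%) and 5 higher (0.0832%). The filter favoured a direction for many genes. Of the 6007, 3459 were above background on both control arrays and neither mutant array, SUA7 among them. A further 1214 had 1 mutant array above background, and these too entered through the control arrays alone. Another 16 entered through the mutant arrays, without both control arrays. A test of only the 1318 genes above background on all 4 arrays gave 1302 lower and 4 higher. The split between lower and higher calls belongs to the spike-in scale. With each array's own 75th percentile as the reference, 3052 genes were called higher and 1706 lower, with its median 2337 and 2442, with quantile normalization 2070 and 2059, and with the authors' deposited normalized values 2038 and 2065 of 6025 probes. The authors' deposited table lists 2768 of its 6025 probes at a corrected p under 0.05, 1509 up and 1259 down. Moving to the 75th percentile raises every difference by 9.96 on the log2 scale and moving to the median raises it by 9.20. Of the 1318 genes described below by size, 248 are still lower on the first of these scales and 375 on the second. Any gene or list median between -9.96 and 0 below, and so most of them, turns positive on the 75th percentile. Differences below are on the spike-in scale.

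**Figure D1:**
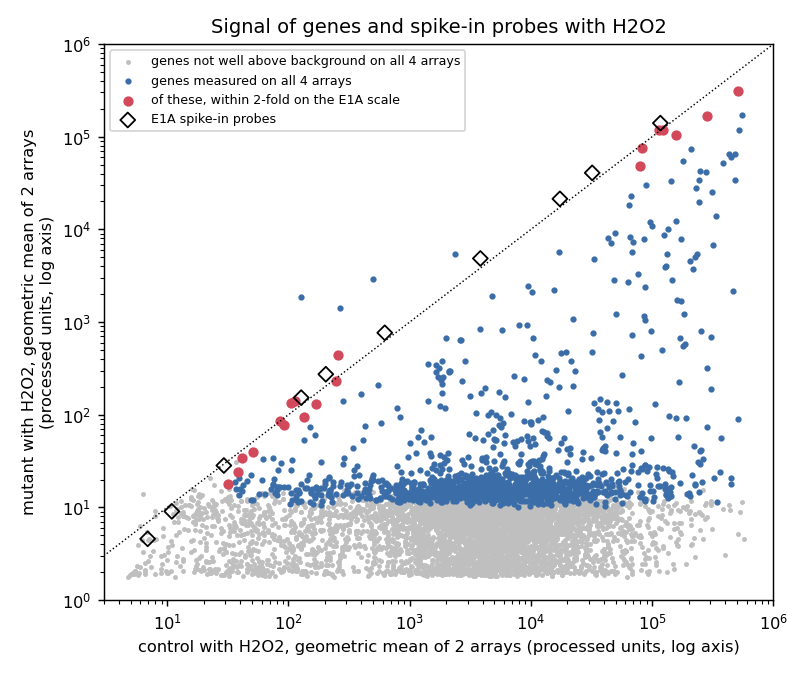
Scanner signal of each gene on the control arrays (horizontal) and mutant arrays (vertical) with H2O2, as geometric means of 2 arrays on log axes. Genes measured on all 4 arrays are blue, those within 2-fold on the spike-in scale are red, the others are grey, and the E1A spike-in probes are open diamonds. The diamonds lie near the diagonal while most genes lie in a band of a few units on the mutant axis at every control level.

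Size was described only for the 1318 genes (21.2%) that were well above background on all 4 arrays. A further 1214 genes were well above background on both control arrays and on 1 mutant array. Another 3459 tested genes were well above background on neither mutant array, and for these the difference is a bound, between 3.32-fold and 68679-fold lower with a median of 484-fold. On both mutant arrays 5555 genes (89.2%) read under 20 scanner units, and so did 675 of the 1318 measured genes (51.2%), which puts those just over background. In 150 genes (2.41%) all 4 arrays read at least 100 scanner units, so these lie clear of background.

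Among the 1318 measured genes the median log2 difference was -7.97, or 250-fold lower in the mutant, and it was -3.83, or 14.2-fold lower, in the 150 brighter genes. By size, 409 genes were over 512-fold lower, 600 between 64-fold and 512-fold lower, 207 between 8-fold and 64-fold lower, and 79 between 2-fold and 8-fold lower. Only 19 (1.44%) stayed within 2-fold of the control level, and 4 were more than 2-fold higher. Replicates were close beside differences of this size. Across measured genes, the difference between the 2 arrays of a strain had a standard deviation of 0.29 log2 for the controls and 0.17 for the mutants. This leaves out a shift that all genes share, and over all probes the median was 6.04 and 9.75 scanner units on the 2 mutant arrays. Signals of the 2 control arrays correlated at r = 0.989 over these genes and those of the 2 mutant arrays at 0.995, while control and mutant means correlated at 0.385 (genes are not independent replicates, and all share the same arrays). The mutant arrays thus resembled each other far more than they resembled the controls.

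**Figure D2:**
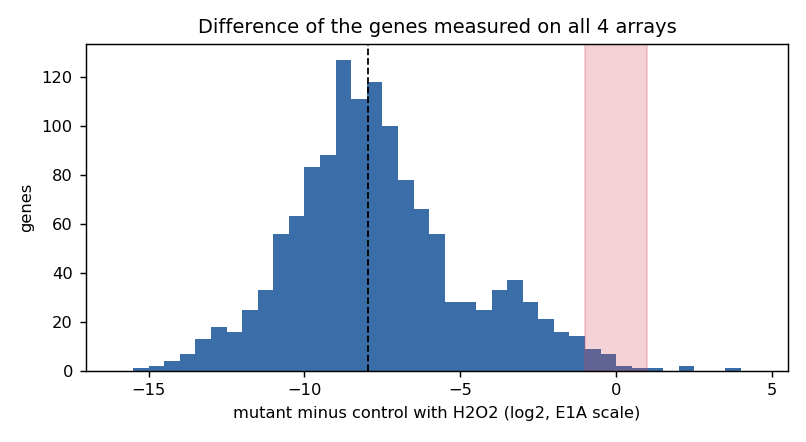
Number of genes (vertical) by mutant minus control log2 difference with H2O2 on the spike-in scale (horizontal), for the 1318 genes measured on all 4 arrays. The bulk lies around the median of -7.97 and few genes reach the 2-fold range around 0.

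The size of a difference went with the control level. When genes were divided by control signal into 5 groups of 1245, the median mutant signal was 6.71 scanner units in the dimmest group and 9.01 in the brightest. The share measured on all 4 arrays ran from 15.3% in the dimmest group through 19.6%, 20.8% and 20.6% to 29.6% in the brightest. The median difference of the measured genes ran from -3.87 in the dimmest group to -10.41 in the brightest. The genes within 2-fold came from both ends and nowhere between: 12 from the dimmest group and 7 from the brightest. The 12 read under 500 scanner units on all 4 arrays, and the 7 read over 10000 on all 4.

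The 7 bright transcripts near the control level serve energy supply, nitrogen assimilation, translation and the cell wall. GLN1 (chromosome XVI, 642208 to 643320) encodes glutamine synthetase, which fixes ammonium onto glutamate. It read 148486 and 96173 units on the control arrays and 110837 and 113745 units on the mutant arrays. The mutant values lay between the control values, and the log2 difference was -0.09 ± 0.32 (limma adjusted p = 0.790). PET9 (chromosome II, 163041 to 163997) encodes the main ADP/ATP carrier of the mitochondrial inner membrane. Its signal was 127071 and 127869 units on the control arrays and 101945 and 125137 units on the mutant arrays. The groups did not overlap, but they differed by only -0.17 ± 0.28 (adjusted p = 0.559, limma). ATP2 (chromosome X, 647607 to 649142), for the catalytic beta subunit of mitochondrial ATP synthase, gave 84322 and 87488 units on the control arrays and 68188 and 75409 units on the mutant arrays. Its mutant values were slightly below both controls, with a difference of -0.26 ± 0.27 and a limma adjusted p of 0.377.

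The other 4 bright ones were lower in the mutant and passed the test. ECM33, for a GPI-anchored protein of the cell wall, read 160753 and 166389.6 units on the control arrays and 95037 and 105284 units on the mutant arrays, which is 1.63-fold lower (limma adjusted p = 0.0401). NCW1, another cell wall protein gene, read 87559 and 79832 units on the control arrays and 44288 and 48593 units on the mutant arrays, or 1.80-fold lower (adjusted p = 0.0207 in limma). TEF1 (chromosome XVI, 700594 to 701970), for elongation factor eEF1A, which carries aminoacyl-tRNA to the ribosome, was the brightest gene of both mutant arrays. It stood at 577930.1 and 496001 units on the control arrays and 269722 and 322296 units on the mutant arrays. In EFT2 (chromosome IV, 1243230 to 1245758), for the ribosomal translocase eEF2, the values were 316516 and 280319 units on the control arrays and 140728 and 179509 units on the mutant arrays. TEF1 was 1.82-fold and EFT2 1.87-fold lower (limma adjusted p = 0.0232 and 0.0204). In all 4 genes both mutant values lay below both control values. None of the 19 genes within 2-fold was called higher in the mutant, and 6 of them were called lower.

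**Figure D3:**
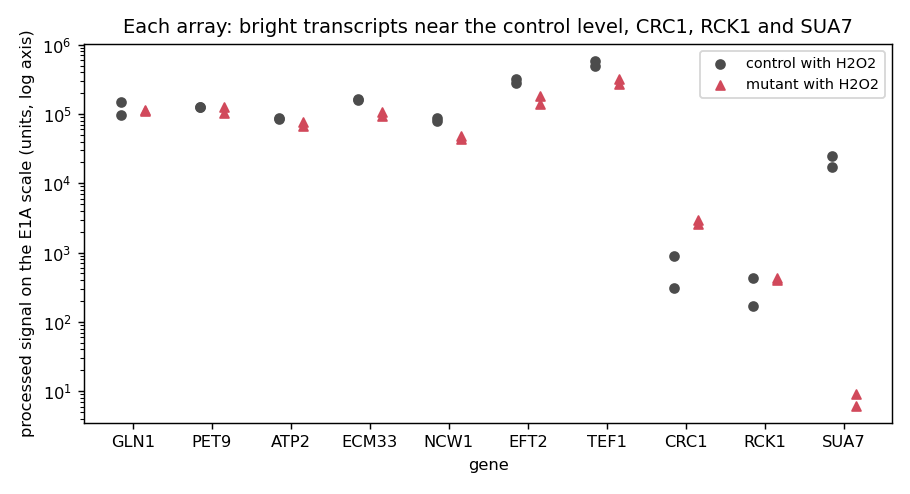
Processed signal on the spike-in scale (vertical, log axis) on each array for 10 genes (horizontal). Grey circles are the 2 control arrays with H2O2 and red triangles the 2 mutant arrays with H2O2. The first 7 genes stay over 10000 units in both strains, CRC1 is higher in the mutant, RCK1 overlaps, and SUA7 drops to under 10 units.

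The 12 dim genes in the 2-fold range have 2 with a standard name. RCK1 (chromosome VII, 207033 to 208571), for a protein kinase with a role in the oxidative stress response, read 434 and 168 units on the control arrays and 430.2 and 404 units on the mutant arrays. The spread of the control arrays covers both mutant values, and the difference of 0.63 ± 0.47 did not pass (limma adjusted p = 0.234). MF(ALPHA)1, which encodes the alpha-factor pheromone precursor and is silent in a cells, read 44.7 and 41.8 units on the control arrays and 28.03 and 38.6 units on the mutant arrays. The mutant values lie just below both control values, and all 4 are close to background. Of the 12, 7 are open reading frames that the authors' deposited table describes as dubious, among them YIL012W at 109 and 113 units on the control arrays and 124 and 134 units on the mutant arrays and YOR050C at 118 and 119 units on the control arrays and 126 and 141 units on the mutant arrays. On the second control array both YIL012W and YOR050C lay below the highest negative control spot (146 scanner units). Only 11 of the 19 genes within 2-fold were above that spot on each array, so several dim ones cannot be told from negative controls. YPR050C overlaps MAK3, whose own probe was 552-fold lower, and YOR139C overlaps SFL1, whose probe was well above background on neither mutant array. The remaining 3 are YNL034W, YMR244W and YBR124W. In 4 of the 19 genes the groups overlapped: GLN1, RCK1, YOR139C and YOR029W.

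The limit of 2-fold cuts a continuous series. The members just inside it were TEF1 at -0.86, EFT2 at -0.91 and YBR124W at -0.95, and those just outside were YOL037C at -1.02, AYT1 at -1.04 and YJL152W at -1.08. Each of the last 3 was dim on every array, at most 70.4 units.

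Higher levels in the mutant were rare. YHR140W (chromosome VIII, 380572 to 381291), an uncharacterised gene, read 151 and 118 units on the control arrays and 1634 and 1929.8 units on the mutant arrays. Every mutant value was over 10-fold above every control value, and the difference was 3.73 ± 0.30 (limma adjusted p = 1.35e-05). On the second control array, however, its signal lay below the highest negative control spot (146 scanner units), so its control level is uncertain. Requiring signals above that spot on each array left 3 genes over 2-fold higher in place of 4. CRC1 (chromosome XV, 513295 to 514278, minus strand) encodes the carrier that takes acetylcarnitine into mitochondria. It gave 885 and 305 units on the control arrays and 2965 and 2589 units on the mutant arrays. The control arrays differ from each other, but both lie below both mutant arrays, and the gene was 5.34-fold higher (log2 difference 2.42 ± 0.52, limma adjusted p = 0.00325).

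The other calls in this direction rest on less well defined transcripts. YLR076C is a dubious reading frame overlapping RPL10, the gene of a large-subunit ribosomal protein, and read 302 and 261 units on the control arrays and 1395 and 1344 units on the mutant arrays. That is 4.88-fold higher (limma adjusted p = 0.000154), while the RPL10 probe itself read 285949 and 249119.7 units on the control arrays and 636 and 899 units on the mutant arrays and was 353-fold lower. Q0017 is a dubious frame of the mitochondrial genome that overlaps Q0010, and read 2889.5 and 2089 units on the control arrays and 4385 and 6207 units on the mutant arrays, 2.12-fold higher (limma adjusted p = 0.0167). The probe of Q0010 was well above background on none of the 4 arrays. Without H2O2 the differences of YHR140W, YLR076C and Q0017 were 1.48, 2.77 and 0.34. The last call, YDR015C, was above background on the mutant arrays alone, with 12.5 and 14.01 units against 8.11 and 5.36 units, and no size is given for it.

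The 10 brightest genes with a standard name on the mutant arrays were TEF1, TEF2, EFT2, RPS2, PET9, GLN1, ECM33, ATP2, RPL40A and RPP0. Of these, 6 encode elongation factors or ribosomal proteins. TEF2, the second gene for eEF1A, read 623092 and 533663 units on the control arrays and 148773 and 182087 units on the mutant arrays and was 3.50-fold lower. RPS2, of the small ribosomal subunit, read 609408 and 488233 units on the control arrays and 100321 and 128391 units on the mutant arrays (4.81-fold lower). RPL40A, which encodes a ubiquitin fused to a large-subunit protein, read 218615 and 221905 units on the control arrays and 70239.9 and 69298 units on the mutant arrays (3.16-fold lower). RPP0, of the ribosomal stalk, read 555785 and 453155 units on the control arrays and 52589 and 72174 units on the mutant arrays (8.15-fold lower). All 10 were bright in the control as well, the lowest being ATP2.

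Brightness in the control did not carry over in general. The 10 brightest named control genes that were well above background on neither mutant array include 7 for ribosomal proteins and 3 for glycolysis and fermentation. FBA1, for fructose-bisphosphate aldolase, read 661109.7 and 544801 units on the control arrays and 3.30 and 5.68 units on the mutant arrays, at least 68679-fold lower. RPS31, which makes a ubiquitin fused to a small-subunit protein, read 577229 and 497241 units on the control arrays and 4.22 and 5.67 units on the mutant arrays, at least 61309-fold lower. ADH1, the main alcohol dehydrogenase of fermentation, read 617093 and 497156 units on the control arrays and 9.15 and 7.83 units on the mutant arrays, at least 60585-fold lower. These control levels are as high as that of TEF1, yet the mutant values lay in the background. RPL5, TPI1 (triosephosphate isomerase), RPS24A, RPS24B, RPS17B, RPL30 and RPL22A had bounds from 18178-fold to 47854-fold. RPL22A differed between the mutant arrays, at 7.74 and 27.6 units.

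The 10 measured genes with a standard name that lay furthest below the control were all bright in it. RPS12 read 386279.5 and 331031 units on the control arrays and 11.5 and 10.2 units on the mutant arrays and was 32965-fold lower (limma adjusted p = 1.21e-07). HYP2, for the translation factor eIF5A, was 27532-fold lower, and CDC19, the main pyruvate kinase, 23396-fold lower. TIF1 and TIF2, which both encode the RNA helicase eIF4A, were 18288-fold and 15042-fold lower. RPS15, RPS16B, PGK1 (phosphoglycerate kinase), CCW12 (cell wall mannoprotein) and AHP1 (a peroxiredoxin) make up the 10, all between 15042-fold and 32965-fold lower. Over these 10 genes the lowest control value was 196622 units, in AHP1, and the highest mutant value 25.2, in CCW12. With mutant signals this close to background, the ranking mainly restates the control level.

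Gene groups were compared by how many members were measured on all 4 arrays, against 1318 of 6225 genes (21.2%) for the whole array, and by how many passed 100 scanner units, against 150 (2.41%). In every list all tested members, or all but 1, were called lower, except the mitochondrial genome list (19 of 21). That is the background share of 99.5%, so calls do not separate the groups. The plot of shares by list shows how unevenly the measured genes were spread.

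**Figure D4:**
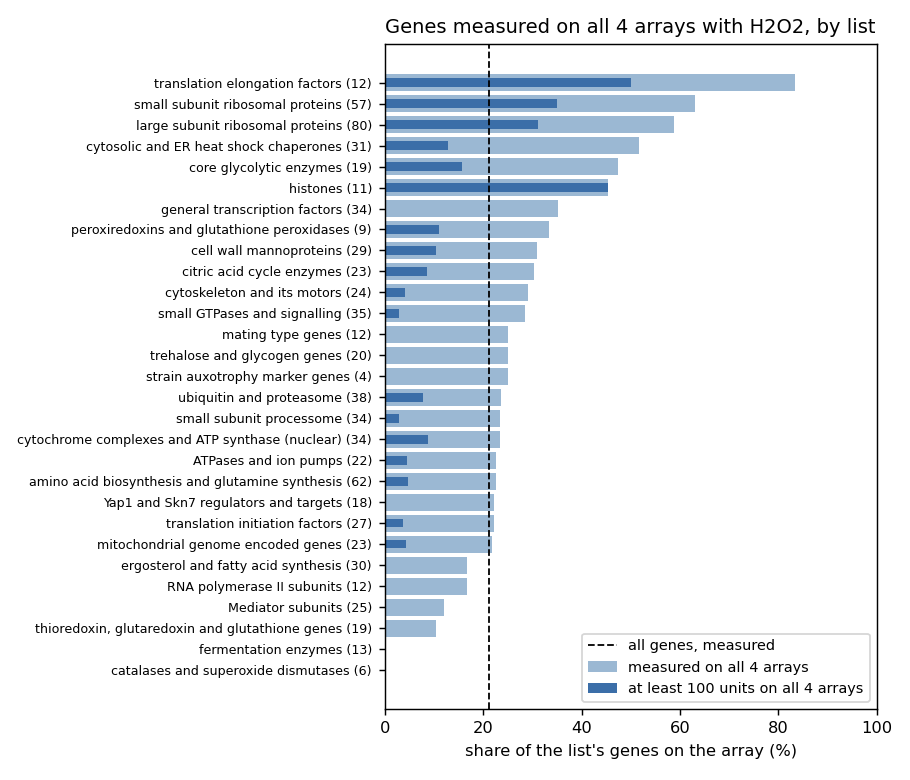
Share of genes on the array (horizontal, percent) in each gene list (vertical, number of genes in brackets) that were measured on all 4 arrays with H2O2 (light bars) or read at least 100 scanner units on all 4 (dark bars). The dashed line is the share of all genes that were measured, 21.2%. Translation elongation factors and both ribosomal protein lists reach furthest right, and no fermentation enzyme, catalase or superoxide dismutase was measured.

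Among translation genes the lists differed. Of the elongation factors 10 of 12 were measured and 6 passed 100 units, with a median difference of -5.61 against -7.97 for all measured genes. YEF3, the fungal-specific elongation factor eEF3, read 347802 and 309981 units on the control arrays and 21376 and 27673 units on the mutant arrays, 13.5-fold lower. GCN20, a regulator of translation listed here beside the elongation factors, had 14305 and 13318 units in control cells and 1.89 and 1.91 units in mutant cells. Ribosomal proteins of the small subunit were measured in 36 of 57 cases with 20 over 100 units, and those of the large subunit in 47 of 80 with 25. Their medians were -8.24 and -9.79, and their ranges -15.01 to -1.68 and -13.21 to -1.66, so the lists hold some of the smallest and some of the largest differences. Where mutant signals were just over background, the size of a difference mainly restates the control level. Of the initiation factors 6 of 27 were measured, close to the share of the whole array, and 1 passed 100 units, GCD11 of eIF2, at 33062 and 33254 units on the control arrays and 406 and 496 units on the mutant arrays.

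Most ribosomal proteins in yeast are encoded by a pair of genes whose products are nearly the same, and in the mutant the copies often differed. Of 56 such pairs, 25 had both copies measured, 18 had 1 and 13 had neither. Where both were measured, they differed from each other by a median of 4.01 on the log2 scale, and 15 of the 25 differed by over 2. The widest gap, 10.9, was in RPS29A and RPS29B, of which RPS29B read 191212 and 185000.1 units on the control arrays and 47491 and 56516 units on the mutant arrays, 3.63-fold lower, and RPS29A was lower by a log2 difference of -12.72. RPS22A (difference -2.69) stood against RPS22B (-10.97), and RPL4B (-2.87, 7.30-fold lower) against RPL4A, which was not well above background on both mutant arrays. Probes of near-identical copies can bind each other's RNA, so each value is uncertain as to copy.

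Some paralogs outside the ribosome differed as well. EFT1 and EFT2 encode the same protein, and EFT1 read 257696 and 237519 units on the control arrays and 4575 and 5881 units on the mutant arrays (47.7-fold lower) where EFT2 was 1.87-fold lower. ENO1 (enolase) read 152746 and 146333 units on the control arrays and 29124 and 34490.1 units on the mutant arrays, 4.72-fold lower, while its paralog ENO2, with 483947 and 436368 units in control cells, read 6.02 and 13.2 units in mutant cells. HHF2 (histone H4) read 64333 and 70860.0 units on the control arrays and 17765 and 17091 units on the mutant arrays, 3.87-fold lower, but HHF1, which encodes the same protein, had 172382 and 163564 units in control cells against 5.28 and 6.13 units, at least 19216-fold lower. PET9 stayed within 2-fold, and the minor ADP/ATP carriers AAC1 and AAC3 were 4.93-fold and 79.9-fold lower. In contrast SSB1 and SSB2, the ribosome-bound Hsp70 chaperones, differed little from each other (-5.82 and -5.14), as did the small GTPase genes ARF1 and ARF2 (-11.87 and -11.77).

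Histones, chaperones and glycolytic enzymes also had more measured members than the array as a whole. Of the histones 5 of 11 were measured, all 5 of them over 100 units, with a median of -4.22. HTA1 (histone H2A) read 89409.9 and 89337 units on the control arrays and 7971 and 7179.7 units on the mutant arrays and HTB2 (H2B) 50579 and 50506 units on the control arrays and 2656 and 2764 units on the mutant arrays, or 11.8-fold and 18.7-fold lower. Both H3 genes, HHT1 and HHT2, were well above background on neither mutant array, so histone messages did not move as 1 unit. Among chaperones 16 of 31 were measured and 4 passed 100 units, with a median of -8.01. The stress-inducible HSP82 (Hsp90) read 19005 and 15167 units on the control arrays and 268 and 317 units on the mutant arrays, 58.3-fold lower, and its constitutive paralog HSC82 read 163405 and 190869 units on the control arrays and 15.5 and 19.996 units on the mutant arrays, 10034-fold lower.

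In glycolysis 9 of 19 enzymes were measured and 3 passed 100 units, with a median of -8.54. Those 3 were ENO1, GPM1 (phosphoglycerate mutase) and TDH3 (glyceraldehyde-3-phosphate dehydrogenase). GPM1 read 497864 and 437328 units on the control arrays and 54196 and 60600.4 units on the mutant arrays, 8.14-fold lower. TDH3 read 315472 and 344329 units on the control arrays and 6593 and 6476 units on the mutant arrays, 50.4-fold lower. HXK1, a hexokinase, differed between the control arrays themselves, at 43526 and 4149 units, so its difference of -8.54 ± 1.01 is less certain than the others. The list median has the same value, so it is uncertain too. None of the 13 fermentation enzymes was measured.

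The measured shares in the 4 lists of the peroxide defence lay on both sides of the 21.2% for the whole array. The share was 0% for catalases and superoxide dismutases and 33.3% for peroxiredoxins and glutathione peroxidases. It was 10.5% for thioredoxin, glutaredoxin and glutathione genes and 22.2% for Yap1 and Skn7 regulators and targets. Every tested member of these 4 lists was called lower on the spike-in scale, as were 99.5% of all tested genes, so these calls say nothing particular to them. None of the 6 catalase, superoxide dismutase and related genes was well above background on any mutant array. SOD1, the copper-zinc superoxide dismutase, had 170876 and 173756 units in control cells and 3.65 and 5.16 units in mutant cells, at least 19719-fold lower. Of the peroxiredoxins and glutathione peroxidases 3 of 9 were measured, and 1, GPX2, passed 100 scanner units. GPX2, a glutathione peroxidase, read 3659 and 3746 units on the control arrays and 99.002 and 101 units on the mutant arrays and was 37.03-fold lower. The main cytosolic peroxiredoxin gene TSA1 was above background on neither mutant array, with 141982 and 149405 units in control cells and 3.56 and 5.75 units in mutant cells, at least 16667-fold lower. GPX2 and DOT5 would be higher on the 75th percentile scale, and AHP1 and TSA1 lower. AHP1 read 196622 and 229571 units on the control arrays and 11.2 and 16.5 units on the mutant arrays, and DOT5, a nuclear peroxiredoxin, 2957 and 3259 units on the control arrays and 9.50 and 12.7 units on the mutant arrays.

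Of the thioredoxin, glutaredoxin and glutathione genes 2 of 19 were measured. TRR2, the mitochondrial thioredoxin reductase, read 2941 and 2735 units on the control arrays and 27.7 and 34.2 units on the mutant arrays (92.03-fold lower), and GRX2, a glutaredoxin, was 672-fold lower. TRX2, a cytoplasmic thioredoxin that Yap1 induces, had 53261 and 55222 units in control cells and 3.85 and 6.66 units in mutant cells. In the list of Yap1 and Skn7 regulators and targets 4 of 18 were measured, none over 100 units. YAP1 itself read 16991 and 19223 units on the control arrays and 10.8 and 20.4 units on the mutant arrays, 1215-fold lower. ZWF1, for the first enzyme of the pentose phosphate pathway, was 807-fold lower, the old yellow enzyme gene OYE2 3909-fold and the aryl-alcohol dehydrogenase gene AAD4 47.9-fold lower.

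In the transcription machinery 12 of 34 general transcription factors were measured, 2 of the 12 subunits of RNA polymerase II and 3 of 25 Mediator subunits, with none over 100 units. Brightest of the general factors on the mutant arrays was KIN28, the kinase of TFIIH, at 5929.9 and 5631 units on the control arrays and 29.7 and 43.98 units on the mutant arrays, 159.8-fold lower. TOA2, of TFIIA, read 4875 and 5459 units on the control arrays and 28.7 and 32.5 units on the mutant arrays, 169-fold lower, and TAF7 and TAF8, of TFIID, were 428-fold and 354-fold lower. SPT15, the gene of the TATA-binding protein that TFIIB contacts, had 27707 and 29383 units in control cells and 9.14 and 7.63 units in mutant cells, at least 3123-fold lower. RPB8 was the brighter of the measured polymerase subunits, at 35019.5 and 42912 units on the control arrays and 63.9 and 59.1 units on the mutant arrays.

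Other metabolic groups were nearer the array as a whole. Of the citric acid cycle enzymes 7 of 23 were measured, led by SDH2, the iron-sulfur subunit of succinate dehydrogenase, at 10577 and 9332 units on the control arrays and 2438 and 2236 units on the mutant arrays (4.25-fold lower). For nuclear genes of the cytochrome complexes and ATP synthase the count was 8 of 34. ATP2 stayed near the control level, but ATP1, the alpha subunit with which it forms the catalytic head, had 120276 and 127334 units in control cells and 3.53 and 8.98 units in mutant cells, at least 14162-fold lower. In amino acid synthesis 14 of 62 genes were measured, and GLN1 was followed by ARO2 (chorismate synthase), 44.8-fold lower, and ILV5 (acetohydroxyacid reductoisomerase), 105-fold lower. In sterol and fatty acid synthesis the count was 5 of 30, with the desaturase gene OLE1 at least 26675-fold lower. In cell wall mannoproteins it was 9 of 29, with TIR1 41.98-fold lower after ECM33.

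Of further groups, 9 of 38 ubiquitin and proteasome genes were measured, 7 of 24 cytoskeletal, 10 of 35 small GTPase and signalling, 5 of 22 ATPase, 8 of 34 processome and 5 of 20 trehalose and glycogen genes. SAC6, for the actin-bundling protein fimbrin, read 50318 and 40935 units on the control arrays and 7983 and 7333 units on the mutant arrays, 5.93-fold lower, while actin (ACT1) was well above background on 1 mutant array only, at 6.77 and 10.1 units against 143322 and 149367 units in control cells. PPH21, a catalytic subunit of protein phosphatase 2A, read 16546 and 16134 units on the control arrays and 2081 and 2201 units on the mutant arrays, 7.63-fold lower. PMA1, the plasma membrane proton pump, was at least 20659-fold lower.

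Transcripts of the mitochondrial genome are made by a polymerase that does not use TFIIB. On the array 5 of 23 genes of that genome were measured, and of 21 tested 19 were called lower and 1 higher, Q0017. OLI1, for subunit 9 of ATP synthase, read 606882 and 462752 units on the control arrays and 95.8 and 75.5 units on the mutant arrays and was 6231-fold lower. COX2, of cytochrome oxidase, read 1841 and 2676 units on the control arrays and 14.4 and 10.5 units on the mutant arrays, 181-fold lower. COB, for cytochrome b, read 23319 and 26823 units in control cells and 1.91 and 5.46 units in mutant cells. AI4, an intron-encoded gene, read 65.9 and 60.4 units on the control arrays and 19.7 and 18.3 units on the mutant arrays, 3.32-fold lower. The 5 measured genes thus ranged from Q0017 above the control to OLI1 far below it, with a median of -4.44.

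Mating type and auxotrophy genes were read as a check of the strain. The a-cell genes MFA1, MFA2, STE2, STE6, BAR1 and AGA2 read between 1326 and 32892 units there, and the alpha-cell genes MF(ALPHA)1, MF(ALPHA)2, STE3 and SAG1 between 41.8 and 1151. Of the auxotrophy genes, HIS3 read 5.19 and 5.36 units on the control arrays and was above background on none of the 4, while LEU2 read 41658 and 30969 units, TRP1 3519 and 3313 units and URA3 1881 and 1871 units there. On the mutant arrays MFA1 and MFA2 were measured, at 10.3 and 14.5 units and 13.03 and 19.2 units. STE2 was above background on 1 mutant array and BAR1, STE6 and AGA2 on neither. The alpha-cell gene MF(ALPHA)1 was measured there too and, with the values given above, read higher than MFA1 and MFA2. All these values were just over background, so mating type could not be read from the mutant arrays.

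Whether peroxide altered the strain difference was asked with the 4 arrays without H2O2, which are different samples. There 1426 genes were measured on all 4 arrays and 7 lay within 2-fold of the control, and 1073 genes were measured in both media. Over these the medians were -7.90 with and -8.53 without H2O2, and 859 of the 1073 (80.1%) were less far below the control with H2O2. The differences in the 2 media correlated at r = 0.947 across genes, which share control and mutant strains but no array. In a limma fit of all 8 arrays, the interaction passed an adjusted p under 0.05 for 116 genes: 111 (10.3%) were less far below with H2O2 and 5 (0.466%) further below. This split, too, belongs to the spike-in scale: it was 97 and 124 with the 75th percentile, 70 and 82 with the median and 57 and 56 with quantile normalization. The 859 genes less far below become 548 with the 75th percentile and 526 with the median.

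These calls were fragile, as the number rested on single arrays. It was 0 without either control array lacking H2O2 or without the second mutant array with H2O2 (limma, with 188, 205 and 246 genes at an unadjusted p under 0.05), 12 without the second control array with H2O2, 29 without the first mutant array with H2O2 and 575 without the second mutant array lacking H2O2. Among the bright genes near the control level the mutant arrays without H2O2 disagreed with each other more than those with H2O2 did, most in TEF1, EFT2 and PET9. TEF1 read 48290.4 and 232876 units on them, EFT2 22797 and 114686 units and PET9 22721 and 95735 units, and none of the 3 passed the interaction test (limma adjusted p = 0.253, 0.250 and 0.0837). ECM33, at 33708 and 101067 units, NCW1, at 15669 and 49399 units, and ATP2, at 50551 and 84607 units, showed the same order, as did ENO1 at 13040.3 and 48834 units and EFT1 at 607 and 3390.4 units. GLN1, at 256665 and 244076 units on the control arrays and 123148 and 143165 units on the mutant arrays without H2O2, did not pass either (0.82 ± 0.35, limma adjusted p = 0.159). Of the 19 genes within 2-fold with H2O2, 16 were measured on all 8 arrays and 5 were within 2-fold in both media.

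Where the interaction was largest, control levels differed between the media and mutant levels were low in both. DSF1 (a mannitol dehydrogenase family gene, interaction 5.13) read 54056 and 52664 units in control cells without and 3428 and 749 units with H2O2, against 19.1 and 30.3 units and 24.5 and 26.2 units in mutant cells. TSL1, a subunit of trehalose synthase, had 22703 and 20954 units without and 1698 and 499.6 units with H2O2 in control cells, against 13.6 and 20.8 units and 15.8 and 18.6 units in mutant cells. RTN2, HXT17 and THI73 followed, with interactions of 5.001, 4.44 and 4.40. The 5 genes in the other direction were BFR2, NRP1, REI1, MAK16 and KRI1, of which BFR2, REI1, MAK16 and KRI1 act in ribosome assembly. BFR2 read 2327 and 2509.9 units without and 8258 and 11864 units with H2O2 in control cells, and 12.7 and 15.3 units and 14.2 and 18.4 units in mutant cells. These 10 were picked after their values were seen, as the 5 largest in each direction.

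**Figure D5:**
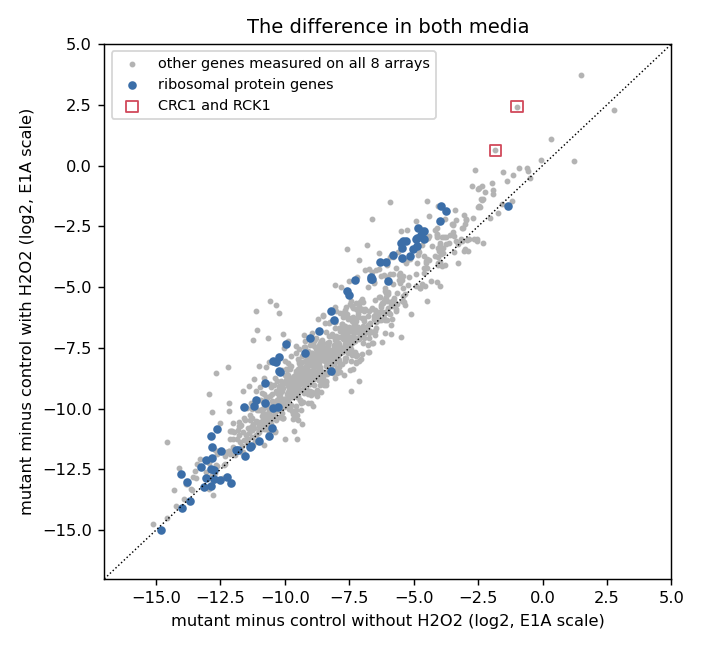
Mutant minus control log2 difference without H2O2 (horizontal) and with H2O2 (vertical) on the spike-in scale, for the 1073 genes measured on all 8 arrays. Ribosomal protein genes are blue, CRC1 and RCK1 are open red squares, and the dotted line marks equal differences. Points follow the line at r = 0.947, and 859 of 1073 lie above it.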

How the data were processed

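Labelled cRNA of each sample was hybridised to 1-colour Agilent arrays (Cy3). Feature Extraction 10.7.1.1 made the deposited spot intensity values, per the file headers, as a background-subtracted processed signal, and marked which spots stood well above background. Each array holds 13048 spots, of which 536 are controls. For 6256 probes, spots not marked as outliers were log2 transformed and averaged, and the mean log2 of the array's 10 E1A probes was subtracted. Genes with several probes (29) took the brightest. Printed gene signals are back on a unit scale, multiplied by the geometric mean of the E1A signal over the 4 arrays with H2O2. A gene counted as measured when every kept spot was well above background on all 4 arrays. Where neither mutant array was, the fold is a bound: the control mean against the mean of, per mutant array, the higher of its own signal and the lowest well-above signal. The number of arrays limits the precision.

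The authors' deposited table holds log2 values they normalized, a p-value with a corrected p-value, and an absolute fold change, per the file headers. Its 4 raw columns were not used, and its columns were assigned to groups by name.

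limma 3.58.1 in R 4.3.3 was fitted to the 4 arrays with H2O2 (lmFit and eBayes, 2 residual and 4.15 prior degrees of freedom, two-sided, Benjamini-Hochberg over 6007 genes, ± the fitted standard error). The interaction used all 8 arrays and 1073 genes well above background on each. p-values measure the spread between 2 arrays per group. Scripts were tested on simulated data with 200 changed genes. In the main comparison, changes of 1 log2 were recovered in 0% of these genes and changes of 3 log2 in 88.5%. For the interaction the shares were 59% and 92%, with 4 and 13 false calls. A gene that did not pass the test can therefore still differ by 2-fold. Genes were named by rule: SUA7, the highest, lowest, brightest and near-control genes, the brightest control genes dark in the mutant, and up to 4 measured members per list, with the brightest unmeasured one. Overlapping genes and paralogs stand beside them. Genes without a standard name near or above the control level, and the genes with the largest interaction, were added after their values were seen. Alternatives were other scalings, normexp (on the median signal and median background), filters on dim probes, a replicate block and leaving out each array. The comparison, its rule and the 29 lists were chosen with earlier results of these data known. Replicate numbers were not used as pairs in the main fit. With only 2 pairs, an r of 0.0231 for control 1 with mutant 1 cannot settle whether the samples were paired. Gene names were matched to a RefSeq table for 5720 of 6225 genes.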

Additional observations from a re-analysis of the deposited data

Results flagged for a closer look

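The interaction test found a strain difference that differed between the media in the following genes. CRC1 was higher in the mutant with H2O2 (log2 difference 2.42) and lower without it (-0.998), an interaction of 3.41 ± 0.62 (limma adjusted p = 0.0220). Without H2O2 it read 5451 and 5009 units on the control arrays and 2486 and 2752 units on the mutant arrays. With H2O2 the control arrays read 885 and 305 units and the mutant arrays 2965 and 2589 units, so the mutant values were alike in both media and the control values were not. Leaving out each of the 8 arrays gave interactions of 2.65 to 4.18, with limma adjusted p from 0.000909 to 0.124.

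RCK1 had a log2 difference of 0.63 with and -1.83 without H2O2, an interaction of 2.46 ± 0.64 (limma adjusted p = 0.0484). Its values without H2O2 were 1489.8 and 1455 units on the control arrays and 303 and 563 units on the mutant arrays. With H2O2 the control arrays read 434 and 168 units and the mutant arrays 430.2 and 404 units. Leaving out 1 array at a time gave 1.78 to 3.14, with limma adjusted p from 0.00449 to 0.194. For both genes the direction held throughout, and the call was lost without some single arrays.

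For 17 other genes named by the rule or for their interaction, the strain difference also differed between the media in limma (adjusted p from 0.0164 to 0.0484, over the 19 genes). Less far below the control with H2O2 were DSF1 (5.13), RTN2 (5.001), TSL1 (4.59), HXT17 (4.44), THI73 (4.40), GSY2 (4.18), MDH1 (2.39), SDH2 (2.31), UGP1 (2.07), ACO1 (1.91), TIM11 (1.35) and TRR2 (1.28). Further below with H2O2 were BFR2 (-1.82), NRP1 (-1.75), REI1 (-1.75), MAK16 (-1.30) and KRI1 (-1.24). In DSF1, RTN2, TSL1, HXT17 and the genes further below, mutant signals were just over background in both media. Their interaction therefore mainly restates the change of the control level between the media. Of 121 genes at 100 scanner units or more on all 8 arrays, 1 was called. Leaving out single arrays was not run gene by gene for these 17, and without some arrays the interaction gave no call at all.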

How the results depend on the processing

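SUA7 kept its direction and its call under the alternatives run, at 2.74-fold lower with the 75th percentile, 4.62-fold with the median and 2.94-fold with quantile normalization, against a fitted 2724-fold. Those 3 scales rest on mutant signals near background, so they cannot support the SUA7 call. On the spike-in scale SUA7 entered the test through the control arrays alone, so its call there is no support either. Leaving out 1 array gave log2 differences of -11.69 to -11.13, the lone array being assumed to vary like the other group. The scale decided direction elsewhere: the median difference of the measured genes was 1.99 with the 75th percentile, 1.24 with the array median and 1.88 with quantile normalization, against -7.97. It was -5.93 with normexp and -3.83 at 100 units or more. With those 3 scales genes within 2-fold numbered 295, 395 and 319 in place of 19, and genes over 2-fold higher 900, 713 and 921 in place of 4. With normexp 41 genes lay within 2-fold, with limits of 1.5-fold and 4-fold 11 and 50, at 100 units or more 10, and above the highest negative control spot 11. Measured genes numbered 150 at 100 units or more and 2087 when 1 flagged spot sufficed, and between 1318 and 2508 without 1 array, the highest without the first mutant array. Testing only measured genes gave 1306 calls of 1318, since fewer were tested.

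Interaction calls (116) were 221 with the 75th percentile (97 less far below, 124 further below), 276 with normexp, 1 of 121 genes at 100 units or more, and 0 at an adjusted p under 0.01 (limma, 334 at an unadjusted p under 0.05). With the replicate block they numbered 67, and the calls with H2O2 5980 in place of 5984. Leaving out 1 array gave 0 to 575. Of the 10 E1A probes 3 were not well above background on all 8 arrays. Scaling on the other 7, chosen after seeing the data, gave 89 interaction calls, 15 genes within 2-fold and 3 called higher with H2O2 in place of 5. Averaging the control arrays without H2O2 as 1 sample, chosen likewise, gave 0 interaction calls (limma, 191 at an unadjusted p under 0.05). The number of arrays and signals near background on the mutant arrays limit precision, and the cause of these shifts was not tested beyond the fewer genes or arrays named.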

Other observations

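Genes of mitochondrial respiration were not near the control level as a group. TIM11, a subunit of ATP synthase needed for its dimer, read 6911 and 7571 units on the control arrays and 99.5 and 95.3 units on the mutant arrays, 74.3-fold lower with H2O2. COX9, of cytochrome oxidase, was 93.1-fold lower and RIP1, the iron-sulfur protein of the bc1 complex, 461-fold lower. PRE3, of the 20S proteasome, read 23906 and 22529 units on the control arrays and 959.9 and 1119 units on the mutant arrays, 22.4-fold lower, beside RPN12, of the regulatory particle, at 456-fold lower.

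By the class in the authors' deposited table, 1084 of 4773 verified reading frames (22.7%), 134 of 684 uncharacterised (19.6%) and 67 of 405 dubious ones (16.5%) were measured on all 4 arrays with H2O2. Dubious frames made up 24 of the 79 genes between 2-fold and 8-fold lower and 4 of the 409 over 512-fold lower. The median control signal of those 79 genes was 292 scanner units, and that of the 409 was 19501.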
